A study of Homo sapiens with 30 samples.

Results

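The genes described here are 10 regulators of pluripotency, taken by symbol from the count tables of H9 human embryonic stem cells: the transcription factors POU5F1, SOX2, NANOG, PRDM14, SALL4, TFCP2L1, ESRRB and TBX3 and the RNA-binding proteins LIN28A and LIN28B. They are 10 of the 28307 genes counted in each of 30 RNA-seq libraries. All 10 members had counts and all passed the filter on low counts in every comparison. The study asked how the noncoding RNA XIST, the noncoding RNA XACT and the protein SPEN, which binds XIST, act on the X chromosome before X inactivation is set up.

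The libraries form 10 groups of 3, all from H9, an established line. Primed WT cells grew on Matrigel in mTeSR1 medium, in the state that resembles the epiblast after implantation. NaiveCult WT and PXGL WT were unedited H9 cells reset to the naive state, which resembles the preimplantation epiblast, with either of the media of those names, on mouse feeder fibroblasts. XACT KO cells carried a homozygous deletion over the start sites of XACT in NaiveCult cells, obtained as 3 clones. XIST KO cells carried a homozygous deletion at XIST in PXGL cells, and the 3 libraries are technical replicates of 1 clone. CRISPRi UT and CRISPRi Dox were PXGL cells with an inducible dCas9-KRAB repressor and a guide to the XIST promoter, kept untreated or given doxycycline, so that the comparison includes any effect of doxycycline itself. Which clone each CRISPRi library came from, of 3 that were obtained, is not stated. PXGL cells transfected with a scrambled siRNA (siScr), 1 siRNA against SPEN (siSPEN1) or a mix of 2 others (siSPEN2) complete the series. Values are CPM, a gene's count scaled to a library total of 1000000 counts, and groups are given as mean ± SD with n = 3.

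As background, POU5F1 (OCT4) and SOX2 bind DNA together at many enhancers of pluripotent cells, and NANOG joins them there in a network whose members also bind their own and each other's genes. PRDM14 and SALL4 are zinc-finger proteins that hold back differentiation genes, whereas TFCP2L1, ESRRB and TBX3 are known from the naive network of the mouse. LIN28A and LIN28B bind RNA and block the maturation of the let-7 family of microRNAs.

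Library totals were 31.2 to 65.6 M counts. The targeted genes followed the labels. XIST was at 0.177, 0.373 and 0.448 CPM in XIST KO against 901, 899.8 and 898 in PXGL WT, and at 6.52, 159 and 169.7 CPM in CRISPRi Dox against 693, 698 and 642 in CRISPRi UT, so that the first treated library kept far less XIST than the other two. SPEN was at 152, 159 and 177 CPM in siSPEN1 and 152, 152 and 167 in siSPEN2 against 376, 283.9 and 329.7 in siScr. XACT was at 0.124, 0 and 0.0766 CPM in XACT KO against 2.17, 1.14 and 1.82 in NaiveCult WT. The state labels were met as well: 9 naive factors and markers summed to 23.3 to 25.7 CPM in Primed WT, where KLF17, DNMT3L and ARGFX were at 0, and to between 2190 and 3439 CPM in every naive library, while 10 primed and formative ones summed to 2711 to 2876 CPM in Primed WT and to between 66.0 and 179.3 CPM in naive libraries.

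Markers of other cell types moved with the culture. The summed CPM of 8 trophectoderm markers was 388 to 474 in NaiveCult WT and 429 to 585 in XACT KO, of which CGA alone gave 271 ± 36.2 CPM in NaiveCult WT, against 60.4 to 65.0 in PXGL WT and 11.6 to 12.1 in Primed WT, where CGA and VGLL1 were at 0. The 8 fibroblast markers summed to 764 to 902 CPM in Primed WT, 16.4 to 28.6 in NaiveCult WT and 3.51 to 4.05 in PXGL WT. In Primed WT THY1 gave 751 ± 71.4 CPM and 4 of the 8 had a mean of at least 1 CPM. DCN and LUM had means of 0.00508 and 0.0538 CPM there. Against Primed WT 7 of the 8 were lower in PXGL WT and 0 higher (median log2 fold change -5.24). In NaiveCult WT 4 were lower and 3 higher (median -0.73). The 7 hypoblast markers summed to 72.3 to 79.4 CPM in NaiveCult WT, 71.3 to 78.1 in PXGL WT and 2.65 to 3.41 in Primed WT. The 6 neuroectoderm markers, nearly all of it NES, summed to 436 to 445 CPM in NaiveCult WT, 368 to 386 in PXGL WT and 481 to 531 in Primed WT, and no group mean of PAX6 exceeded 0.0691 CPM. The part of other cell types in the differences between cultures below was not tested. In these bulk libraries fewer cells that express a gene and less RNA per cell cannot be told apart.

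Before the levels, the sequences of POU5F1 and NANOG show how far their rows can be read, since processed copies of both genes lie elsewhere in the genome and have rows of their own. POU5F1 is on chromosome 6 (hg38, 31164337 to 31180731, minus strand, protein-coding) and its copies POU5F1B, POU5F1P3 and POU5F1P4 are on chromosomes 8, 12 and 1. NANOG is on chromosome 12 (7787794 to 7799146, plus strand, protein-coding), and NANOGP8 on chromosome 15. The stretches of 60 coding bases below come from the GENCODE 44 transcripts and were chosen as the ones with the most differences within 1 exon. Capitals in POU5F1 and NANOG mark bases at which a printed copy differs, and capitals in a copy mark its difference from the parent gene.
POU5F1 (chr6:31170374-31170433, minus strand): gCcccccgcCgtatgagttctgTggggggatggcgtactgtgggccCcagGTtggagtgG
POU5F1P3 (chr12:8134605-8134664, minus strand): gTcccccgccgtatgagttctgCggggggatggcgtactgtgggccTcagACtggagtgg
POU5F1P4 (chr1:155433368-155433427, plus strand): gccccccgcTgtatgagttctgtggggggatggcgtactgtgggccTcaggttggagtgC
NANOG (chr12:7789615-7789674, plus strand): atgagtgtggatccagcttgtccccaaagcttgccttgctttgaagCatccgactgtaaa
NANOGP8 (chr15:35085051-35085110, minus strand): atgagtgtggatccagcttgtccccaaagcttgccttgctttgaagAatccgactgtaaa
Even in these stretches POU5F1P3 differed from POU5F1 at 5 bases, POU5F1P4 at 3 and NANOGP8 from NANOG at 1.

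Over the 1083 coding bases of POU5F1 the aligned part of POU5F1B was 97.9% identical, that of POU5F1P3 98.1% and that of POU5F1P4 97.2%. Of the 984 windows of 100 bases, the read length, in the coding sequence of POU5F1, 321 (32.6%) occur unchanged in at least 1 copy. NANOGP8 was 99.5% identical to NANOG over 918 coding bases, with 5 differences, and 375 of 819 windows (45.8%) are the same in both. The 60 bases of POU5F1 also occur on 6 alternate haplotype sequences of hg38 beside chromosome 6, whereas those of NANOG occur on none. The sources used here do not say whether the authors' index held such sequences.

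The counts were spread over the rows of each gene and its copies, and the cause of the shares was not tested. Across the 30 libraries the POU5F1 row held between 7.38% and 11.3% (median 9.25%) of the summed counts of POU5F1 and its 3 copies, POU5F1P3 between 42.7% and 48.6%, POU5F1B between 24.2% and 33.2% and POU5F1P4 between 14.1% and 17.1%. POU5F1 was thus at 106 ± 4.40 CPM in Primed WT and 38.9 ± 0.561 CPM in PXGL WT, but the sum with its copies was at 970.1 ± 71.6 and 459.8 ± 24.5 CPM. The NANOG row held 54.4% to 63.1% (median 55.9%) of NANOG and NANOGP8. The POU5F1B share was lower in siScr, siSPEN1 and siSPEN2, with means of 25.9% to 26.9%, than in the other groups, at 31.1% to 32.7%. Values of POU5F1, NANOG and their copies are therefore uncertain, and each comparison is given below with the copies summed as well where the call changed, a choice made after seeing the data.

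**Figure D1:**
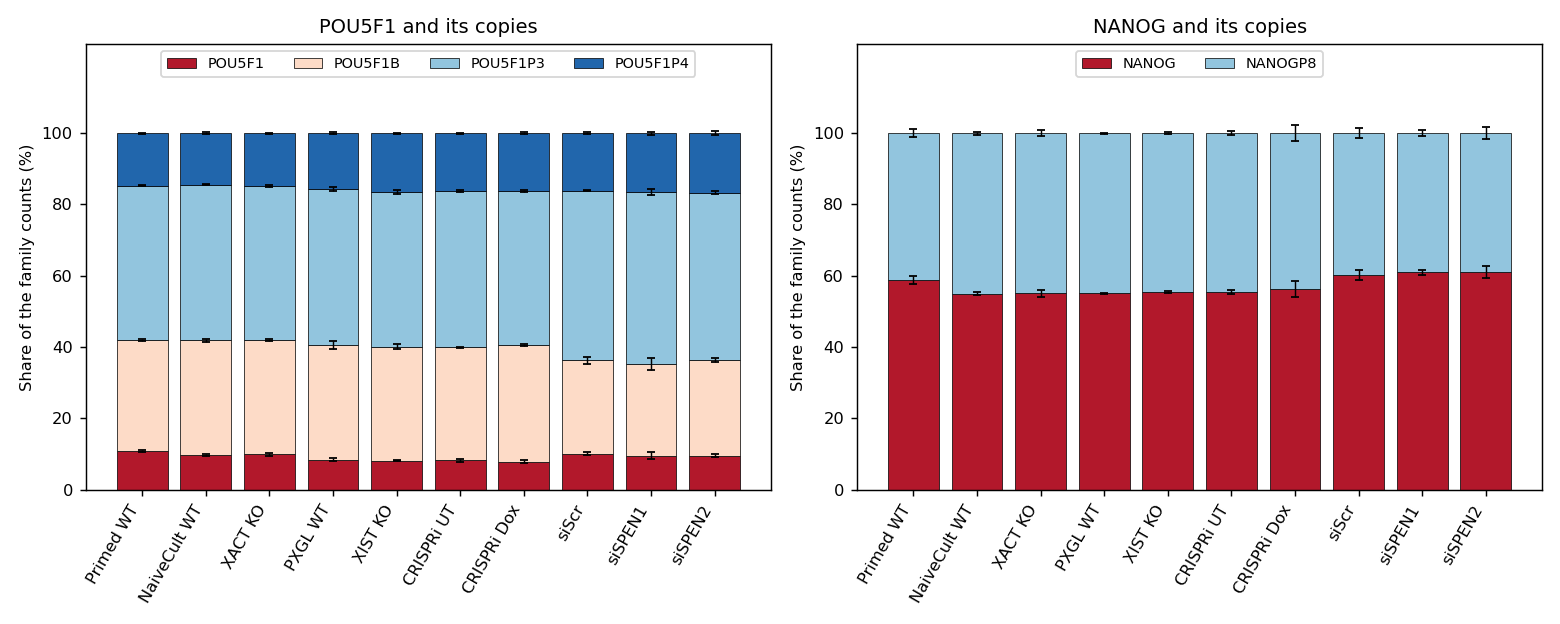
Share of the summed counts of POU5F1 and its copies (left) and of NANOG and NANOGP8 (right) that each gene's row holds, in percent (y axis), for the 10 groups (x axis), as stacked means with SD bars (n = 3). The POU5F1 row holds the smallest share in every group, and the NANOG row between 55.0% and 61.1% of its pair.

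A pair of short motifs of the network were looked for in the promoters of the members, on both strands, in windows of 300 bases (250 before and 50 after the start) from RefSeq on GRCh38.p14. Promoters of 5 members (NANOG, SOX2, TFCP2L1, LIN28B and ESRRB) were examined. Those of the other members, PRDM14 among them, were not, so nothing is said here about their motifs. The core of the octamer that POU5F1 binds (ATGCAAA or its reverse complement TTTGCAT) is in 4.46% of the 35116 promoters of the table, a SOX site (CATTGT or ACAATG) in 10.8%, and both in 0.73%. The promoters of NANOG and SOX2 are shown because they hold the octamer core, and that of TFCP2L1 because its level differed most between the states among these 5 members. Capitals mark the motif matches.
NANOG (chr12:7789152-7789451, plus strand): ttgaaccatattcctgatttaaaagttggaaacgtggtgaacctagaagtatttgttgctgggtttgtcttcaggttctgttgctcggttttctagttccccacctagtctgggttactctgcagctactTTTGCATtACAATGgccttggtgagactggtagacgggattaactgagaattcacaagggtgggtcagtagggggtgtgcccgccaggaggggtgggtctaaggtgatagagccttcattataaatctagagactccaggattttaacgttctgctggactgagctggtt
SOX2 (chr3:181711675-181711974, plus strand): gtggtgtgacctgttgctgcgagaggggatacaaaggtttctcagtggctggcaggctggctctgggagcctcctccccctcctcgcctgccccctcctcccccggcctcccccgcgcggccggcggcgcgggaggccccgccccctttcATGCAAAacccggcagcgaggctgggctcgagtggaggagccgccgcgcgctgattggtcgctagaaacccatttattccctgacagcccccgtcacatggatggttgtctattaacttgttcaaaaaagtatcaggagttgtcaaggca
TFCP2L1 (chr2:121285153-121285452, minus strand): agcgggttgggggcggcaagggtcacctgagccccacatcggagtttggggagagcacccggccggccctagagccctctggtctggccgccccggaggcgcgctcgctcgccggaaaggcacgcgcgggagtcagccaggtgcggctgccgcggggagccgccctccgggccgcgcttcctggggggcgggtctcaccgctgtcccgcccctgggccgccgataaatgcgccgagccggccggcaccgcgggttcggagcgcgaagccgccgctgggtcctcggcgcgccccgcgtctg
NANOG holds both motifs side by side, 1 base apart, and was the only one of the 5 members with both in 1 window. TFCP2L1 holds neither in its 300 bases, which are 77.3% GC with 43 CpG, against medians of 58.7% and 14 over all promoters, while the NANOG window is 46.7% GC with 5 CpG. One of the 2 LIN28B windows and 1 of the 3 ESRRB windows hold a SOX site. A match describes the letters of a window and is no evidence of binding.

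Levels between genes were compared per length, as CPM per kb of exon in GENCODE 44. The lengths join the exons of all transcripts of a gene. The study names another annotation for its counting, so close ranks are uncertain. LIN28A was the highest member in each wild-type group, at 681 ± 22.6 CPM per kb in Primed WT, 332 ± 18.3 in NaiveCult WT and 298 ± 7.81 in PXGL WT. Its paralog LIN28B was next in both naive groups, at 214 ± 12.9 and 169 ± 3.70 CPM per kb, whereas SOX2 held that place in Primed WT at 136 ± 13.4. PRDM14 ranked 3 in both naive groups, at 84.0 ± 10.3 and 159 ± 3.09 CPM per kb, but ranked 7 in Primed WT. ESRRB was the lowest in both naive groups, at 0.148 ± 0.0318 and 0.182 ± 0.0473 CPM per kb, and TBX3 the lowest in Primed WT at 0.00391 ± 0.00347. The place of POU5F1, rank 6 in Primed WT and rank 8 in both naive groups, rests on its own row, without the reads counted to its copies. The same holds for NANOG. With the copies added, places of other members, such as those of LIN28B, SOX2 and PRDM14, could change as well.

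**Figure D2:**
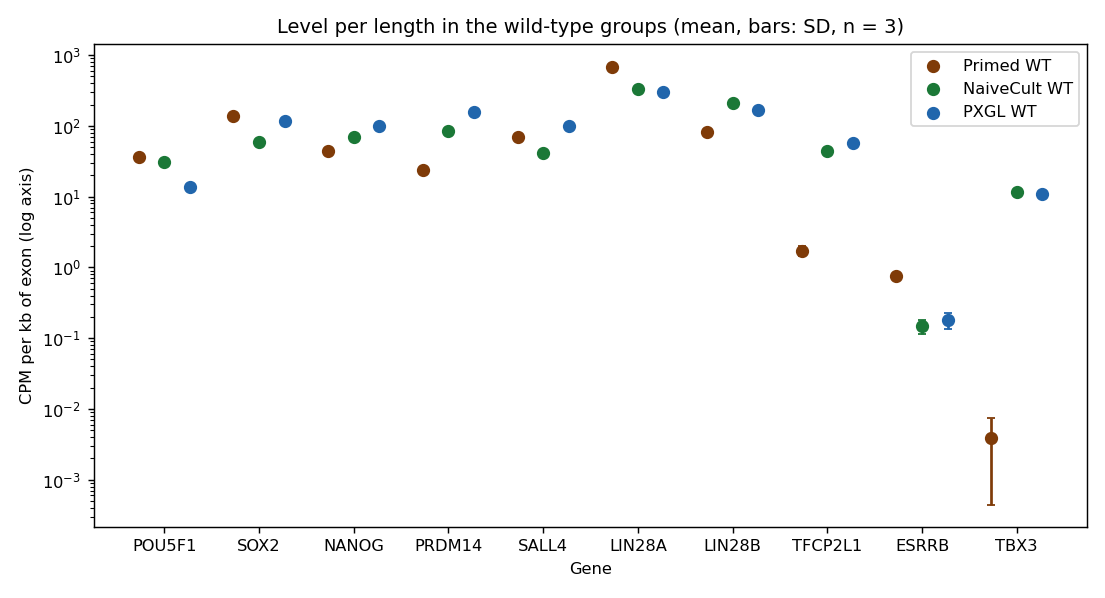
CPM per kb of exon (y axis, log scale) of each member (x axis) in Primed WT, NaiveCult WT and PXGL WT; points are means and bars SD (n = 3). LIN28A is highest in all groups, and TBX3 spans the widest range, from 0.00391 CPM per kb in Primed WT to 11.6 in NaiveCult WT.

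The first question was how the factors differ between the naive and primed states. Of the 10 members 9 passed the test (edgeR quasi-likelihood F-test, adjusted p below 0.05) between NaiveCult WT and Primed WT, 5 higher (NANOG, PRDM14, LIN28B, TFCP2L1 and TBX3) and 4 lower (SOX2, SALL4, LIN28A and ESRRB) in NaiveCult WT. Over all 18663 genes tested, 42.5% were higher and 43% lower, so the number of members called was close to the background. Between PXGL WT and Primed WT 9 members passed as well, 6 higher (NANOG, PRDM14, SALL4, LIN28B, TFCP2L1 and TBX3) and 3 lower (POU5F1, LIN28A and ESRRB), against a background of 43.1% and 44.4%. With the added requirement of a log2 fold change past 1 in either direction, the thresholds of the study, 6 members remained against NaiveCult WT (background 49.6%) and 7 against PXGL WT (background 54.8%). Both comparisons share the Primed WT libraries. The deposited PXGL WT tables carry another sample code prefix than those of the other two groups. What the prefix marks is not stated, so in these comparisons anything it marks and the culture cannot be told apart. Leaving out the TMM scaling factors moved the log2 fold changes of the members by -0.15 in NaiveCult WT and by -0.21 in PXGL WT against Primed WT.

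**Figure D3:**
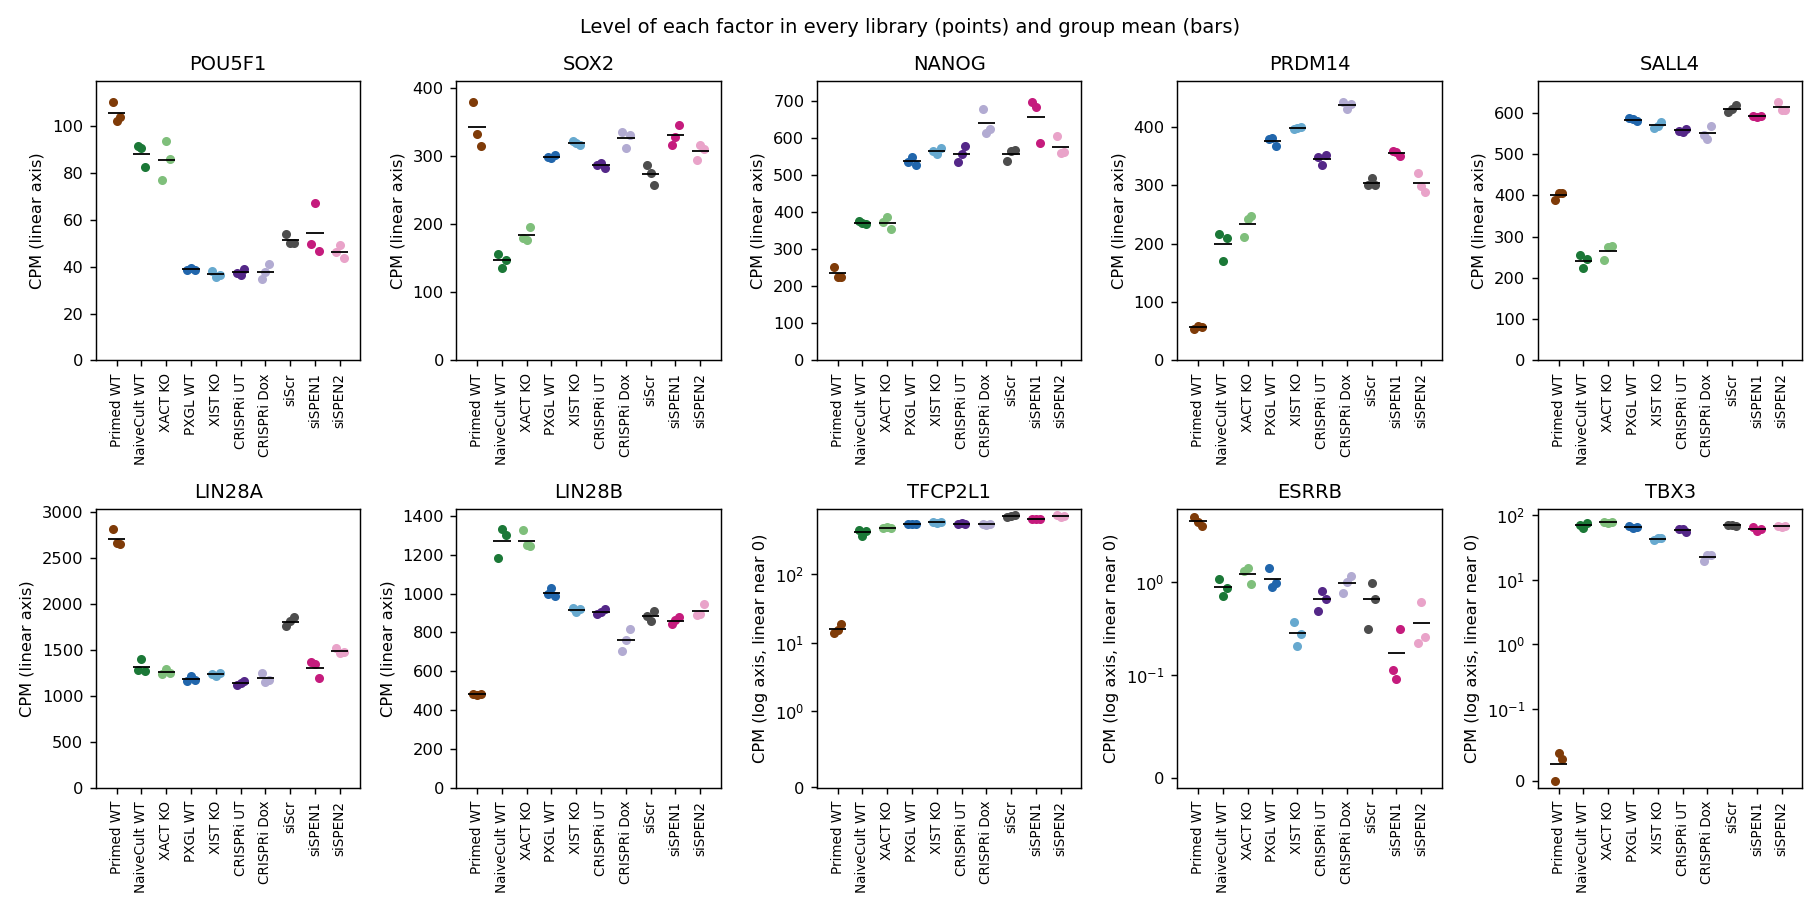
CPM of each member (y axis, linear from 0, or for TFCP2L1, ESRRB and TBX3 a log axis that turns linear near 0) in every library (points) of the 10 groups (x axis), with the group means as bars. TFCP2L1 and TBX3 are lowest in Primed WT, where LIN28A is at its highest and LIN28B at its lowest.

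Of POU5F1, SOX2 and NANOG, SOX2 was lower in NaiveCult WT than in both Primed WT and PXGL WT. SOX2 (chromosome 3, 181711925 to 181714436) was at 379.7, 333 and 314 CPM in the Primed WT libraries, 157, 136 and 148 in NaiveCult WT and 299, 297 and 301 in PXGL WT. The NaiveCult libraries lay below all others, and those of PXGL WT below all of Primed WT. SOX2 was 2.10-fold lower in NaiveCult WT than in Primed WT (log2 fold change -1.07, SE 0.069, edgeR adjusted p = 2.88e-09) and 2.11-fold higher in PXGL WT than in NaiveCult WT (log2 fold change 1.081, SE 0.069, edgeR adjusted p = 6.75e-09). Between PXGL WT and Primed WT the value was 0.012 (SE 0.067), edgeR adjusted p = 0.876, and this one depended on scaling, with -0.20 and adjusted p = 0.0131 without TMM factors. SOX2 lies within the noncoding gene SOX2-OT on the same strand without overlap of exons, and SOX2-OT gave -0.71, 0.82 and 0.12 on the log2 scale in the same comparisons (edgeR adjusted p = 0.000244, 9.54e-05 and 0.402).

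POU5F1 was at 110.5, 102 and 104 CPM in Primed WT, 91.4, 90.9 and 82.5 in NaiveCult WT and 38.6, 39.5 and 38.5 in PXGL WT. PXGL WT was the low group here, with no overlap with the other two. The log2 fold change was -1.23 (SE 0.058) against Primed WT and -1.13 (SE 0.059) against NaiveCult WT (edgeR adjusted p = 8.28e-11 and 8.53e-10), and with the copies summed -0.87 and -0.91 (edgeR adjusted p = 1.24e-08 and 1.96e-08). NaiveCult WT against Primed WT gave -0.10 (SE 0.057), edgeR adjusted p = 0.102. That value was 0.044 with the copies summed (adjusted p = 0.529) and -0.26 without TMM factors, where it passed (adjusted p = 0.000410). The rows of POU5F1B, POU5F1P3 and POU5F1P4 did not pass there either, at 0.089, 0.055 and 0.017 (edgeR adjusted p = 0.279, 0.415 and 0.797). TCF19 overlaps 248 exon bases of POU5F1 (8.64%) on the other strand.

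NANOG was higher in naive than in primed cells and higher in PXGL than in NaiveCult medium, in every library. It was at 254, 226 and 226 CPM in Primed WT, 377, 372 and 367 in NaiveCult WT and 536, 550.3 and 528 in PXGL WT. The gain over Primed WT was 1.76-fold in NaiveCult WT (log2 fold change 0.82, SE 0.054, edgeR adjusted p = 3.86e-09) and 2.64-fold in PXGL WT (log2 fold change 1.40, SE 0.054, edgeR adjusted p = 9.18e-12). PXGL WT was 1.502-fold above NaiveCult WT (log2 fold change 0.59, SE 0.053, edgeR adjusted p = 2.75e-07). NANOGP8 gave 1.04, 1.62 and 0.58 on the log2 scale in the same comparisons, with all of these passing.

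The zinc-finger factors PRDM14 and SALL4 followed different orders. PRDM14 (chromosome 8, 70051651 to 70071693, minus strand) was at 53.2, 59.6 and 57.9 CPM in Primed WT, 217, 171 and 209 in NaiveCult WT and 379, 381 and 368 in PXGL WT, so that the groups formed steps without overlap. The steps were 3.88-fold from Primed WT to NaiveCult WT (log2 fold change 1.96, SE 0.074, edgeR adjusted p = 9.36e-12) and 1.96-fold from NaiveCult WT to PXGL WT (log2 fold change 0.97, SE 0.071, edgeR adjusted p = 2.88e-08), and 7.62-fold from Primed WT to PXGL WT. SALL4 (chromosome 20, 51782331 to 51802521, minus strand) was at 389, 406 and 406 CPM in Primed WT, between the 257, 223 and 246 CPM of NaiveCult WT and the 587, 585 and 581 CPM of PXGL WT. SALL4 was lower in NaiveCult WT (log2 fold change -0.57, SE 0.049, edgeR adjusted p = 6.08e-08) and higher in PXGL WT (log2 fold change 0.75, SE 0.048, edgeR adjusted p = 2.52e-09) than in Primed WT. The direct comparison of the naive cultures gave a 2.51-fold difference (log2 fold change 1.33, SE 0.049, edgeR adjusted p = 3.66e-11).

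The paralogs LIN28A and LIN28B changed in opposite directions between the states. LIN28A (chromosome 1, 26410817 to 26429728) was at 2809.8, 2659 and 2650.4 CPM in Primed WT, 1286, 1402 and 1268 in NaiveCult WT and 1159.7, 1219.9 and 1177 in PXGL WT. LIN28B (chromosome 6, 104936616 to 105083332) was at 485, 481 and 485 CPM in Primed WT, 1184, 1329 and 1298 in NaiveCult WT and 997, 1029.8 and 988 in PXGL WT. Every naive library of these groups lay below every primed library for LIN28A and above every one for LIN28B. LIN28A was 1.85-fold lower in NaiveCult WT (log2 fold change -0.88, SE 0.055, edgeR adjusted p = 1.9e-09) and 1.98-fold lower in PXGL WT (log2 fold change -0.98, SE 0.055, edgeR adjusted p = 5.06e-10). LIN28B was 2.92-fold higher in NaiveCult WT (log2 fold change 1.55, SE 0.051, edgeR adjusted p = 2.11e-12) and higher in PXGL WT as well (log2 fold change 1.26, SE 0.051, edgeR adjusted p = 1.36e-11). Between the naive cultures LIN28B was lower in PXGL WT (log2 fold change -0.28, SE 0.050, edgeR adjusted p = 0.000164), and LIN28A gave -0.10 (SE 0.054) with edgeR adjusted p = 0.118, or -0.15 with adjusted p = 0.00779 without TMM factors. On the scale of CPM per kb the excess of LIN28A over LIN28B was thus largest in Primed WT, at 680.8 against 81.3, and smallest in NaiveCult WT, at 332 against 214. LIN28B-AS1 overlaps 181 exon bases of LIN28B (3.05%) on the other strand, and the counting used strand.

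TFCP2L1 and TBX3 showed the largest differences of the 10 between naive and primed cells. TFCP2L1 (chromosome 2, 121216587 to 121285202, minus strand) was at 13.9, 15.6 and 18.7 CPM in Primed WT, 438, 366 and 427 in NaiveCult WT and 542, 536 and 547 in PXGL WT. It was 28.3-fold higher in NaiveCult WT (log2 fold change 4.82, SE 0.096, edgeR adjusted p = 1.26e-14) and 38.7-fold higher in PXGL WT (log2 fold change 5.28, SE 0.098, edgeR adjusted p = 5.43e-15), and differed between these by 0.45 (SE 0.080) on the log2 scale (edgeR adjusted p = 0.000156).

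TBX3, a T-box factor (chromosome 12, 114670255 to 114684175, minus strand), was near 0 in primed cells. Primed WT held 4 reads of TBX3 in all, at 0, 0.0395 and 0.0305 CPM, against 70.5, 63.3 and 74.0 CPM in NaiveCult WT and 66.9, 63.2 and 65.7 in PXGL WT. The ratio of summed CPM to Primed WT was 2900.2 for NaiveCult WT (95% interval 1132 to 10646, covering counting error only) and 2740.4 for PXGL WT (1070.0 to 10059). Between the naive cultures TBX3 gave -0.032 (SE 0.066), edgeR adjusted p = 0.682.

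ESRRB, an orphan nuclear receptor that is a core naive factor in mouse, went the other way at a low level. ESRRB (chromosome 14, 76310712 to 76501837) was at 4.99, 4.40 and 4.01 CPM in Primed WT, 1.07, 0.697 and 0.855 in NaiveCult WT and 1.40, 0.877 and 0.959 in PXGL WT. It was 4.59-fold lower in NaiveCult WT (log2 fold change -2.20, SE 0.22, edgeR adjusted p = 3.75e-07) and 3.55-fold lower in PXGL WT (log2 fold change -1.83, SE 0.21, edgeR adjusted p = 1.37e-06). Its median coefficient of variation over the groups was 24.8%, against 1.27% to 4.98% for the other 9 members.

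Directly between PXGL WT and NaiveCult WT, 7 of 10 members passed. SOX2, NANOG, PRDM14, SALL4 and TFCP2L1 were higher in PXGL WT (background 35.7%) and POU5F1 and LIN28B lower (background 34.9%). LIN28A, ESRRB and TBX3 did not pass. The members past a log2 fold change of 1 were POU5F1, SOX2 and SALL4, against 27.4% of all genes. The trophectoderm markers were lower in PXGL WT (7 of 8 passed, median log2 fold change -1.68), and the part of such cells in these values was not tested.

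**Figure D4:**
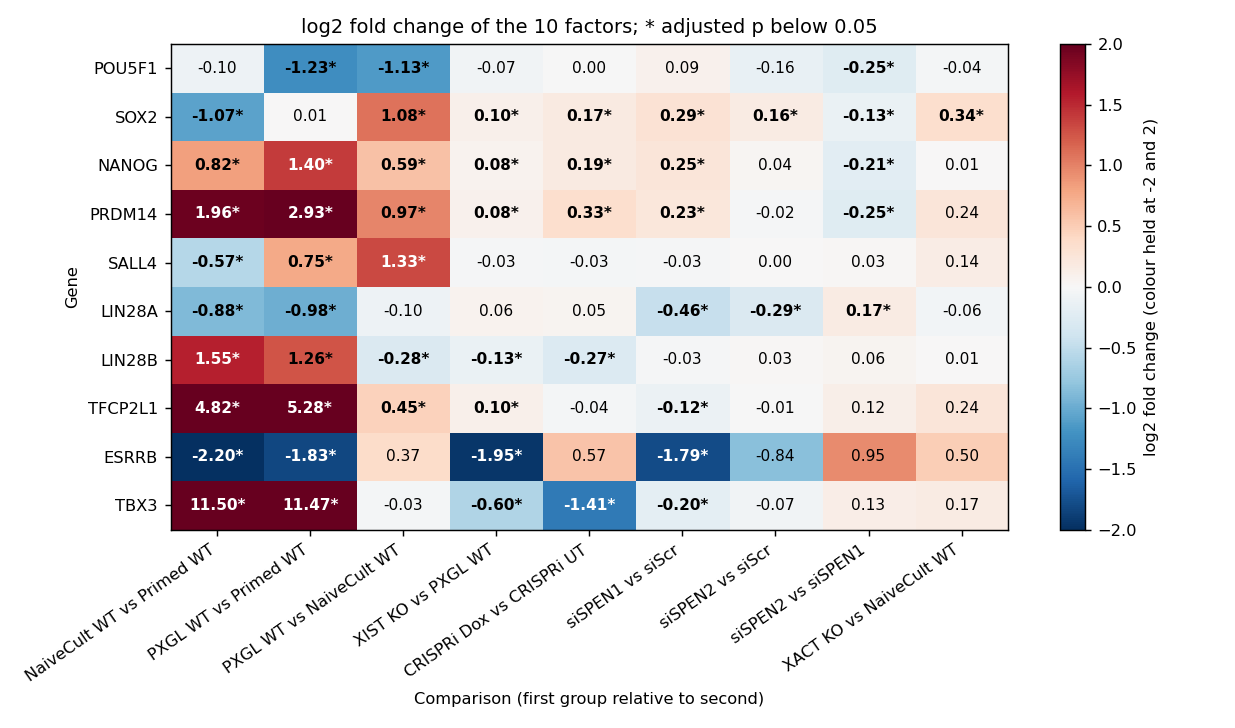
log2 fold change of each member (rows) in the 9 comparisons (columns, first group relative to second), printed in each cell and shown by colour, which is held at -2 and 2; bold values with * passed at an adjusted p below 0.05. The first 3 columns hold the large differences between states and cultures, and in the others few values leave the range of -0.5 to 0.5.

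Loss of XIST was examined in PXGL cells by deletion and by repression. In both systems all members but ESRRB and TBX3 stayed within a log2 change of 0.33 of their controls, and TBX3 was lower in both. TBX3 was at 41.4, 44.4 and 43.3 CPM in XIST KO against 66.9, 63.2 and 65.7 in PXGL WT, and at 19.6, 23.7 and 23.6 in CRISPRi Dox against 61.3, 59.5 and 55.0 in CRISPRi UT. In both systems every library with XIST deleted or repressed lay below every control. TBX3 was 1.51-fold lower after deletion (log2 fold change -0.60, SE 0.031, edgeR adjusted p = 1.56e-13) and 2.66-fold lower with doxycycline (log2 fold change -1.41, SE 0.078, edgeR adjusted p = 1.1e-07), and the systems share no libraries. The fall was larger with doxycycline by -0.81 (SE 0.083) on the log2 scale in the test of the difference itself (edgeR adjusted p = 9.08e-07). Among the treated libraries the one with the least XIST had 19.6 CPM of TBX3 and the others 23.7 and 23.6 CPM. The XIST KO libraries, with less XIST still (0.177 to 0.448 CPM), kept 41.4 to 44.4 CPM of TBX3. Whether TBX3 follows the level of XIST was not tested. The trophectoderm markers summed to 45.3 to 48.8 CPM in XIST KO and 60.4 to 65.0 in PXGL WT, but to 54.4 to 60.9 in CRISPRi Dox and 50.6 to 52.3 in CRISPRi UT, while the hypoblast markers summed to 92.5 to 108 CPM in CRISPRi Dox and 76.1 to 78.7 in CRISPRi UT, and their part was not tested. TBX3-AS1 overlaps 196 exon bases of TBX3 (3.29%) on the other strand.

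Counted over all members, 5 of 10 passed with doxycycline, SOX2, NANOG and PRDM14 higher and LIN28B and TBX3 lower, against a background of 17.2% higher and 14.4% lower genes. After deletion 7 passed, SOX2, NANOG, PRDM14 and TFCP2L1 higher and LIN28B, ESRRB and TBX3 lower, against 13.3% and 12.6%. Past a log2 fold change of 1 there was TBX3 with doxycycline (background 3.45%) and ESRRB after deletion (background 1.54%). The deletion libraries are technical replicates of 1 clone, and the biological coefficient of variation of their fit was 0.0254, against 0.0653 in the doxycycline fit. With the spread shared over all 30 libraries the count after deletion was 2, TBX3 and ESRRB, and NANOG also lost the call without replicate 1 or 3 of either group (adjusted p between 0.107 and 0.178) and PRDM14 without replicate 3 of either (adjusted p = 0.0998 and 0.0841). LIN28A gained it without PXGL WT replicate 2 (log2 fold change 0.094, adjusted p = 1.12e-05).

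The small rises of PRDM14, SOX2 and NANOG had the same sign in both systems. PRDM14 was at 443, 431 and 439 CPM in CRISPRi Dox against 348, 335 and 351 in CRISPRi UT (log2 fold change 0.33, SE 0.039, edgeR adjusted p = 5.44e-05), and at 395, 398 and 399 in XIST KO against 379, 381 and 368 in PXGL WT (log2 fold change 0.084, SE 0.025, edgeR adjusted p = 0.0128). The groups did not overlap in either system, and the difference between systems was 0.25 (SE 0.047) with edgeR adjusted p = 0.000624. SOX2 was at 335, 312 and 330.2 against 286.7, 289.8 and 282.7 CPM with doxycycline (log2 fold change 0.17, SE 0.041, edgeR adjusted p = 0.00724) and at 322, 319 and 317 against 299, 297 and 301 CPM after deletion (log2 fold change 0.098, SE 0.023, edgeR adjusted p = 0.0022). NANOG gave 0.19 (SE 0.048) and 0.077 (SE 0.026) (edgeR adjusted p = 0.0098 and 0.0289). The first of these was lost without CRISPRi UT replicate 1 (adjusted p = 0.0584). With NANOGP8 added, the value after deletion was 0.067 and the call was lost (adjusted p = 0.0536).

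LIN28B was lower in both systems, at 703, 759 and 819.6 CPM in CRISPRi Dox against 893, 903 and 922 in CRISPRi UT (log2 fold change -0.27, SE 0.056, edgeR adjusted p = 0.00302) and at 925, 907 and 920.1 in XIST KO against 997, 1029.8 and 988 in PXGL WT (log2 fold change -0.13, SE 0.026, edgeR adjusted p = 0.000517). LIN28A gave 0.048 (SE 0.042) and 0.063 (SE 0.027) and did not pass (edgeR adjusted p = 0.417 and 0.0872). POU5F1 and SALL4 did not pass in either system either, with log2 fold changes of -0.0013 with doxycycline and -0.070 after deletion for POU5F1, and of -0.031 and -0.031 for SALL4.

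ESRRB and TFCP2L1 differed between the systems. ESRRB was at 0.373, 0.203 and 0.273 CPM in XIST KO against 1.40, 0.877 and 0.959 in PXGL WT (log2 fold change -1.95, SE 0.31, edgeR adjusted p = 2.71e-05), but at 0.749, 1.00 and 1.15 in CRISPRi Dox against 0.488, 0.792 and 0.656 in CRISPRi UT (log2 fold change 0.57, SE 0.28, edgeR adjusted p = 0.141). The difference of the effects was 2.52 (SE 0.42) (edgeR adjusted p = 0.000241). TFCP2L1 gave 0.10 (SE 0.023) after deletion and -0.038 (SE 0.039) with doxycycline, a difference of -0.13 (SE 0.045) with edgeR adjusted p = 0.0387 that was lost without any of 5 libraries taken singly (CRISPRi UT replicate 2, PXGL WT replicates 1 and 3, XIST KO replicates 1 and 3; adjusted p up to 0.0982). Without CRISPRi Dox replicate 3 LIN28B passed too (adjusted p = 0.00919), and without CRISPRi Dox replicate 2 SOX2 did (0.0465). In all 4 of 10 members passed this test of the systems, against 21.8% of the 17286 genes tested.

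**Figure D5:**
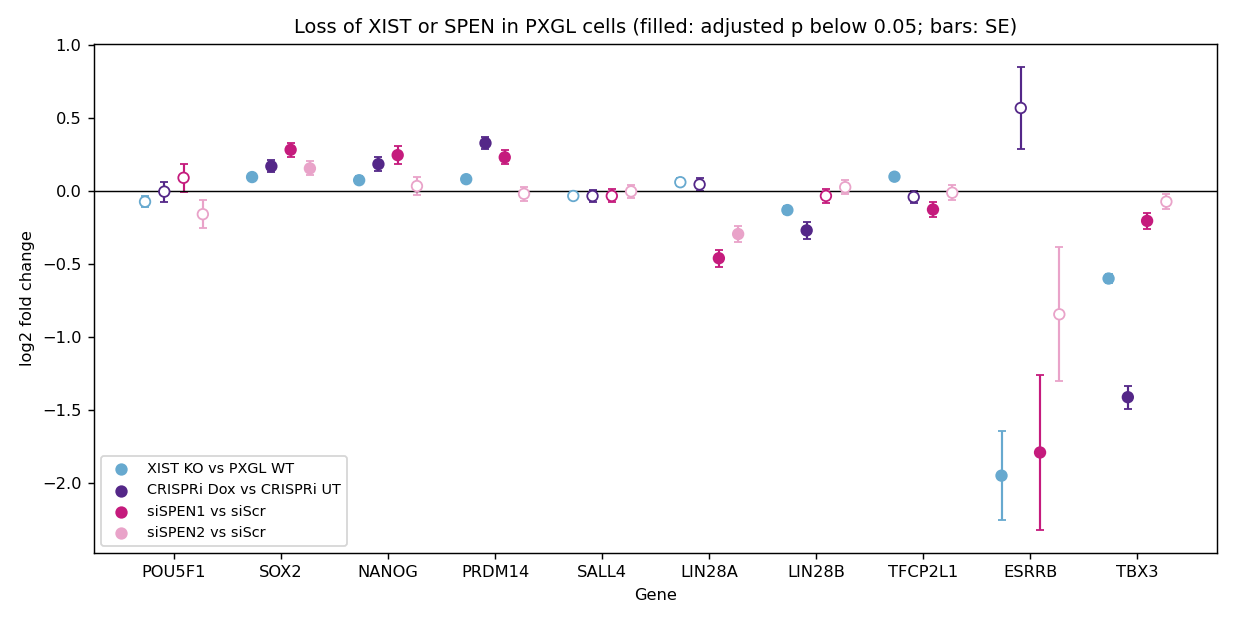
log2 fold change (y axis, bars SE) of each member (x axis) after loss of XIST by deletion or by doxycycline-induced CRISPRi and after knockdown of SPEN with either siRNA mix, each against its own control; filled points passed at an adjusted p below 0.05. TBX3 is lowest with doxycycline (-1.41), and ESRRB has the widest errors.

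Knockdown of SPEN addressed the protein through which XIST may act. The siSPEN1 and siSPEN2 comparisons share the siScr libraries. With siSPEN1 7 of 10 members passed, SOX2, NANOG and PRDM14 higher and LIN28A, TFCP2L1, ESRRB and TBX3 lower, against 20.8% and 22.9% of all genes. With siSPEN2 only SOX2 (higher) and LIN28A (lower) passed, against 20.5% and 20.7%. Past a log2 fold change of 1 there was ESRRB with siSPEN1 (background 5.08%) and no member with siSPEN2 (background 4.24%), where the adjusted p alone called 2 members in edgeR and 2 in DESeq2. Neuroectoderm markers, nearly all NES, summed to 449 to 470.1 CPM in siScr, 282.6 to 319 in siSPEN1 and 508 to 551 in siSPEN2. Counted by gene, of 5 tested, 2 were higher and 1 lower with siSPEN1 (median log2 fold change 0.57). With siSPEN2 2 were higher and 0 lower (median 0.26). The part of such cells was not tested. Hypoblast markers summed to 99.7 to 106 CPM in siScr, 77.6 to 84.3 in siSPEN1 and 85.4 to 89.9 in siSPEN2.

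LIN28A was the member that fell furthest with both mixes, ESRRB with its low counts aside. It was at 1758, 1815 and 1855 CPM in siScr, 1374, 1353 and 1193 in siSPEN1 and 1524, 1468 and 1474 in siSPEN2, with all knockdown libraries below all controls. The log2 fold change was -0.46 (SE 0.058) with siSPEN1 and -0.29 (SE 0.058) with siSPEN2 (edgeR adjusted p = 1.53e-06 and 0.000353). SOX2 was at 286.6, 275 and 258 CPM in siScr, 317, 328 and 346 in siSPEN1 and 295, 316 and 310.0 in siSPEN2, a log2 fold change of 0.29 (SE 0.048) and 0.16 (SE 0.048) (edgeR adjusted p = 5.86e-05 and 0.0122). The second call was lost without siScr replicate 3 or siSPEN2 replicate 2 (adjusted p = 0.0743 and 0.0520). SOX2-OT fell with both mixes (-0.33 and -0.60, edgeR adjusted p = 0.0101 and 5.66e-05). POU5F1 did not pass with either mix on its own row (0.093 and -0.16, edgeR adjusted p = 0.457 and 0.203), but passed with siSPEN1 when the copies were summed (0.18, adjusted p = 0.0411). SALL4 and LIN28B passed with neither mix, with log2 fold changes of -0.031 and 0.00020 for SALL4 and -0.031 and 0.029 for LIN28B.

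NANOG was at 538, 566 and 569 CPM in siScr, 699, 684 and 589 in siSPEN1 and 607, 559 and 563 in siSPEN2, and PRDM14 at 300.4, 312 and 300.3 CPM in siScr, 359, 357 and 349 in siSPEN1 and 321, 299 and 288.9 in siSPEN2. With siSPEN1 both were higher than in siScr in every library (0.25 and 0.23 on the log2 scale, edgeR adjusted p = 0.00299 and 0.000548), and with siSPEN2 the values were 0.037 and -0.016 (0.686 and 0.826). TBX3 was at 70.6, 70.2 and 67.9 CPM in siScr, 64.2, 56.5 and 59.5 in siSPEN1 and 67.6, 65.4 and 67.4 in siSPEN2 (log2 fold change -0.20 and -0.070, edgeR adjusted p = 0.00376 and 0.307). ESRRB was at 0.309, 0.968 and 0.655 CPM in siScr and 0.111, 0.0962 and 0.309 in siSPEN1, groups that met at 0.309 CPM, and its call was lost without siScr replicate 2 (adjusted p = 0.0760). With siSPEN2 ESRRB was at 0.220, 0.601 and 0.252 CPM and gave -0.84 (SE 0.46) (edgeR adjusted p = 0.154), or -1.45 (adjusted p = 0.0446) without siSPEN2 replicate 2. TFCP2L1 passed narrowly with siSPEN1 (log2 fold change -0.12, SE 0.050, edgeR adjusted p = 0.0498) and lost the call in 8 of 12 alternatives, 5 of which left out 1 library (siScr replicates 2 and 3 and each siSPEN1 replicate).

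Tested directly, in a fit without the replicate number, siSPEN2 differed from siSPEN1 in 5 members. POU5F1, SOX2, NANOG and PRDM14 were lower (background 16.3%) and LIN28A higher (background 18.3%), and no member differed past a log2 fold change of 1 (background 2.5%). PRDM14 differed by -0.25 (SE 0.049) (edgeR adjusted p = 0.000401) and kept the call in all 12 alternatives. The others were nearer the threshold, where POU5F1 gave -0.25, SOX2 -0.13, NANOG -0.21 and LIN28A 0.17 (edgeR adjusted p = 0.0479, 0.0454, 0.0124 and 0.0305). Leaving out single libraries left 1 to 5 members: 2 without siSPEN1 replicate 2, 3 without siSPEN1 replicate 3, 2 without siSPEN2 replicate 1 or 2, and 1 without siSPEN2 replicate 3. Without siSPEN1 replicate 1 the count was 5, with TBX3 in place of NANOG (adjusted p = 0.0134 and 0.0845). POU5F1 rested on siSPEN1 replicate 2 in particular, at 67.04 CPM against 49.6 and 46.8 in its group, without which the value was -0.061 (adjusted p = 0.532). With the replicate number as a block, 5 members passed as well, TBX3 in place of SOX2 (adjusted p = 0.0482 and 0.0614).

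Deletion of XACT in NaiveCult cells was the last comparison. SOX2 was the only member that passed, at 180.4, 177 and 195 CPM in XACT KO against 157, 136 and 148 in NaiveCult WT, 1.27-fold higher with no overlap (log2 fold change 0.34, SE 0.067, edgeR adjusted p = 0.0416). The background was 0.206% higher and 0.219% lower genes, and 0.115% past a log2 fold change of 1, where no member lay. DESeq2 called 2 members by the adjusted p, SOX2 and TFCP2L1. The SOX2 call was lost without NaiveCult WT replicate 2 or 3 or XACT KO replicate 1 or 3 (adjusted p between 0.0775 and 0.166) and without TMM factors (adjusted p = 0.0542). TFCP2L1 was at 482, 487 and 479 CPM against 438, 366 and 427 (log2 fold change 0.24, SE 0.064, edgeR adjusted p = 0.0782), and passed without NaiveCult WT replicate 1 (adjusted p = 0.0408). The other 8 had log2 fold changes between -0.057 (LIN28A) and 0.50 (ESRRB).

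Genes that work with the members were examined as lists. Of the wider pluripotency network (12 genes), 7 were higher and 5 lower in NaiveCult WT than in Primed WT, and 8 and 3 in PXGL WT, with median log2 fold changes of 0.53 and 0.65 against -0.013 and -0.028 over all genes. The backgrounds were 42.5% higher and 43% lower genes in NaiveCult WT, and 43.1% and 44.4% in PXGL WT. GDF3, a TGF-beta family ligand, rose by 4.66 and 5.24 on the log2 scale, and ZFP42 (REX1) by 0.90 in NaiveCult WT. FOXD3, a forkhead repressor, was -4.98 and ZSCAN10 -1.05 in NaiveCult WT, and UTF1 5.56, TDGF1 1.09 and DPPA2 2.31 in PXGL WT. Among all genes tested, the shares called higher and lower were 13.3% and 12.6% in XIST KO, 17.2% and 14.4% in CRISPRi Dox, 20.8% and 22.9% with siSPEN1 and 20.5% and 20.7% with siSPEN2, and several of the list counts below are near these. After loss of XIST 1 rose and 5 fell in XIST KO, and 2 and 1 in CRISPRi Dox. NR5A2, a nuclear receptor, fell in both (-0.29 and -0.31), while DPPA2 was -0.17 in XIST KO and 0.49 in CRISPRi Dox. With siSPEN1 6 rose and 2 fell and with siSPEN2 2 and 3, and FOXD3 fell with both (-1.15 and -0.76). In XACT KO FOXD3 alone passed, at 1.43.

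The LIN28 and let-7 axis (13 genes) takes in the enzymes and targets around LIN28A and LIN28B. In NaiveCult WT 2 were higher and 11 lower than in Primed WT (median -0.57), and in PXGL WT 7 and 5 (median 0.22). The backgrounds were 42.5% and 43% in NaiveCult WT, and 43.1% and 44.4% in PXGL WT. HMGA2, a chromatin protein and let-7 target, fell in both (-5.17 and -2.55), and DROSHA, which cuts primary microRNAs, rose by 1.58 in PXGL WT. IGF2BP1, an RNA-binding let-7 target, fell in NaiveCult WT (-1.97). HMGA2 had the smallest adjusted p of the list in each perturbation of PXGL cells and rose by 0.51 in XIST KO and 0.59 in CRISPRi Dox, but fell with siSPEN1 (-0.91) and siSPEN2 (-0.41). In all 4 rose and 2 fell in XIST KO, 3 and 3 in CRISPRi Dox, 1 and 5 with siSPEN1, and 2 and 4 with siSPEN2, of 13 genes, beside backgrounds of 13.3% and 12.6%, 17.2% and 14.4%, 20.8% and 22.9%, and 20.5% and 20.7%.

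Among partners of SALL4 and PRDM14, which include subunits of the NuRD corepressor (12 genes), 3 were higher and 7 lower in NaiveCult WT than in Primed WT, and 6 and 6 in PXGL WT (medians -0.30 and 0.014). Backgrounds were 42.5% and 43% in NaiveCult WT, and 43.1% and 44.4% in PXGL WT. The paralog SALL2 was -7.34 and -4.42, and SALL1 -5.56 in NaiveCult WT. CBFA2T2, the corepressor that binds PRDM14, rose by 3.92 in PXGL WT, and MBD3, a NuRD subunit, by 1.97 and 1.84. In XIST KO 1 rose and 5 fell, in CRISPRi Dox 1 and 3, with siSPEN1 4 and 3 and with siSPEN2 4 and 3. Beside these stand backgrounds of 13.3% and 12.6%, 17.2% and 14.4%, 20.8% and 22.9%, and 20.5% and 20.7%. SALL3 fell in CRISPRi Dox (-1.07), and SALL1 rose by 0.45 in XIST KO.

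The naive list was counted within PXGL cells as well. In XIST KO 2 of 9 rose and 3 fell, in CRISPRi Dox 2 and 3, and with siSPEN2 1 and 1, while with siSPEN1 5 rose. The backgrounds were 13.3% and 12.6% in XIST KO and 17.2% and 14.4% in CRISPRi Dox. They were 20.8% and 22.9% with siSPEN1 and 20.5% and 20.7% with siSPEN2. Both counts were below the background with siSPEN2 alone. SUSD2, a surface marker of naive cells, and the factor KLF17 fell in both XIST systems (-0.21 and -0.12 in XIST KO, -0.72 and -1.24 in CRISPRi Dox). Over the whole list, where 2 of 9 rose in each system, the median log2 fold changes were -0.043 in XIST KO and -0.023 in CRISPRi Dox. KLF4, DNMT3L and DPPA5 rose by 0.45, 0.52 and 0.32 with siSPEN1. Of the primed and formative list, with 9 genes tested, 4 rose and 1 fell in XIST KO, 4 and 2 in CRISPRi Dox, 2 and 3 with siSPEN1 and 5 and 2 with siSPEN2. The same backgrounds apply to these counts.

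Ranked by mean CPM, without TMM factors, over the 10 groups, the members fell into several orders. Primed WT was the highest group for POU5F1, SOX2, LIN28A and ESRRB and the lowest for NANOG, PRDM14, LIN28B, TFCP2L1 and TBX3, and NaiveCult WT was the lowest for SOX2 and SALL4. Several neighbours in these orders overlapped: for LIN28A the 7 lowest groups, from NaiveCult WT at 1319 CPM to CRISPRi UT at 1141, each overlapped the next, and for SOX2 Primed WT, siSPEN1, CRISPRi Dox and XIST KO did. For ESRRB each of the 9 groups below Primed WT overlapped the next. For PRDM14 the neighbours that overlapped were siSPEN1 and CRISPRi UT, siScr and siSPEN2, and XACT KO and NaiveCult WT. The ratio of the highest to the lowest group mean was 2.33 to 2.86 for SOX2, LIN28A, SALL4, LIN28B, NANOG and POU5F1, 7.69 for PRDM14, 25.9 for ESRRB, 44.2 for TFCP2L1 and 3321 for TBX3. With TMM factors Primed WT was no longer the highest group for SOX2. It was then at 291 CPM, below siSPEN1 (355), CRISPRi Dox (326), siSPEN2 (324), XIST KO (320) and PXGL WT (301).

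The pattern over groups was compared by Pearson's r of the group means of log2(CPM + 1), over 10 groups, some of which are controls of others, as a description. The closest pairs of members were TFCP2L1 with TBX3 (r = 0.95) and NANOG with PRDM14 (0.94), and LIN28A with LIN28B gave -0.71. Among 10370 genes, the most like in pattern to POU5F1 was its own copy POU5F1P3 (0.995), followed by SLC16A1 and ATAD2. Among the most like to SOX2 were ZNF275 (0.979) and TSPYL4 (0.969). The most like to NANOG were C19orf47, PDCD7 and HOXA7 (0.991 to 0.993), to PRDM14 SHISA5, SPATA22 and ZNF385D-AS1 (0.989 to 0.990) and to SALL4 SKI, RFX1 and DCAF15 (0.994 to 0.997). LIN28A was most like MOV10, PHOSPHO2 and RTN3 (0.981 to 0.985), LIN28B most like SNORD114-1, DPF3 and UBASH3B (0.984 to 0.987), TFCP2L1 most like SAMHD1, ABR and ENTPD6 (0.997 to 0.998), ESRRB most like C11orf1, ACAD8 and RHOD (0.967 to 0.974) and TBX3 most like DEGS1, MX1 and SLC5A6 (0.990 to 0.995).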

How the data were processed

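Total RNA of H9 cells was depleted of ribosomal RNA and sequenced as stranded paired reads of 100 bases. The authors trimmed reads (Trim Galore 0.6.5), aligned them with Bowtie 2 in local mode to hg38 and to the mouse genome mm10, took out duplicates (Picard 2.23.5) and reads of low mapping quality or mouse origin (XenofilteR), and deposited raw counts per gene from HTSeq 0.13.5, counted on the reverse strand. The quality filter drops reads that align equally well to several copies of a gene, which bears on POU5F1 and NANOG.

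CPM was computed from each library's total count, without TMM factors. Tests used edgeR 4.0.16 (R 4.3.3; quasi-likelihood F-test, TMM, filterByExpr with a minimum count of 10 and total of 15) on each table of all genes, with Benjamini-Hochberg adjustment over the 16448 to 18663 genes of a fit and a threshold of 0.05. XIST KO, CRISPRi Dox and XACT KO were each fitted with their own control, the SPEN groups together, the 3 wild-type groups together, and the 4 groups of both XIST systems together for the difference between systems. Log2 fold changes are edgeR's, on TMM-scaled counts. SE was taken as |log2 fold change| / √F. P-values measure the spread between the libraries, which is technical for XIST KO. On simulated counts for the Dox comparison (16693 genes) 79.1% of genes changed 1.5-fold, 94% of those changed 2-fold and 97% of those changed 4-fold were recovered. No libraries were duplicates.

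The members, the lists and the tests were chosen with earlier results of these data known. Named genes are all members, the targeted genes, copies and overlapping genes of members, up to 4 genes per list and comparison by adjusted p, and the 3 genes most like each member (mean CPM of at least 1 over the libraries, group means spanning at least 1 on the log2(CPM + 1) scale), of which some are not reported here. Positions are from GENCODE 44, promoters from RefSeq. Same-numbered siSPEN1 and siSPEN2 libraries deviated together (r = 0.35, 0.23 and 0.19). The reported fit of the mixes left the replicate number out, and it entered only as a block in an alternative. In the other comparisons at least 1 pair of libraries had r under 0.1. Alternatives were library totals, no filter, DESeq2 1.42.0, all 30 libraries in 1 fit, the replicate block, leaving out each library, and, added after seeing the data, summing copies.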

Additional observations from a re-analysis of the deposited data

Results flagged for a closer look

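The effect of XIST loss differed between the CRISPRi and the deletion system for 4 of the 10 members in edgeR's test of the difference itself, in which the systems' groups of 3 libraries each enter. ESRRB differed by 2.52 (SE 0.42) on the log2 scale, doxycycline minus deletion (edgeR adjusted p = 0.000241), on levels of at most 1.40 CPM. TBX3 differed by -0.81 (SE 0.083) (edgeR adjusted p = 9.08e-07), being lower in 3 of 3 libraries of both systems. PRDM14 differed by 0.25 (SE 0.047) (edgeR adjusted p = 0.000624), being higher in 3 of 3 libraries of both. TFCP2L1 differed by -0.13 (SE 0.045) (edgeR adjusted p = 0.0387). The 3 deletion libraries are technical replicates of 1 clone, so spread between clones does not enter for that system. The joint fit had a biological coefficient of variation of 0.0483, against 0.0254 in the deletion fit and 0.0653 in the doxycycline fit. The systems also differ in doxycycline, in clones and in the XIST that remained, which cannot be told apart here.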

How the results depend on the processing

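Of 1190 values of members under an alternative, 1111 kept their side of the threshold, 57 lost the call, 21 gained it and 1 reversed and gained it. Of the 1111, 41 changed sign, all of them values of at most 0.0817 that passed neither as reported nor under the alternative. Of 56 calls 41 held under every alternative run. SOX2 between PXGL WT and Primed WT reversed to -0.20 without TMM factors, a setting that shifts all genes of that comparison by -0.21. Requiring a log2 fold change past 1 left 3 members between PXGL WT and NaiveCult WT, 1 each in XIST KO, CRISPRi Dox and siSPEN1, and 0 in siSPEN2, between the mixes and in XACT KO. With all 30 libraries in 1 fit 2 members passed in XIST KO and 4 in XACT KO. In XACT KO 0 passed without TMM factors, and 2 without the filter, in DESeq2 and with the replicate block, and the cause was not tested. Leaving out single libraries gave 9 to 9 members for either naive culture against Primed WT, 7 to 7 between the naive cultures, 5 to 8 in XIST KO, 4 to 5 in CRISPRi Dox, 5 to 7 in siSPEN1, 1 to 2 in siSPEN2, 1 to 5 between the mixes, 0 to 2 in XACT KO and 3 to 5 for the difference between XIST systems. With the replicate block 9 members passed between NaiveCult WT and Primed WT, 5 in XIST KO (without NANOG and PRDM14), 5 in CRISPRi Dox, 6 in siSPEN1, 2 in siSPEN2 and 5 between the mixes. Same-numbered libraries of the mixes deviated together. Whether same-numbered libraries belong together is not stated for any of these groups. No paired fit was made between PXGL WT and Primed WT or NaiveCult WT. Scaling the levels by TMM moved 38 of 100 group levels by over 1 SD. At the depth of these libraries ESRRB, and TBX3 in Primed WT, rest on few reads.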

Other observations

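The control groups of PXGL cells came from different experiments and were compared in no test. LIN28A was at 1809.6 ± 48.5 CPM in siScr, 1185 ± 31.04 in PXGL WT and 1141 ± 23.4 in CRISPRi UT, and TFCP2L1 at 710.1 ± 32.9, 542 ± 5.46 and 548 ± 5.36 CPM. POU5F1 was at 51.3 ± 2.20, 38.9 ± 0.561 and 37.6 ± 1.43 CPM. In each of these the siScr libraries lay above those of the other controls. PRDM14 was lowest in siScr instead, at 304 ± 6.74 CPM in siScr, 376 ± 7.31 in PXGL WT and 344 ± 8.43 in CRISPRi UT. The siScr libraries were transfected and the other controls were not, and their tables carry another sample code prefix, whose meaning is not stated. These cannot be told apart.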
